A study of Mus musculus with 29 samples.

Results

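The heat shock chaperones described here are 10 mouse genes chosen by symbol: Hspa1a, Hspa1b, Hspa8, Dnajb1, Hsph1, Hsp90aa1, Hsp90ab1, Hspd1, Hspe1 and Hspb1. All 10 were found in the count files of crypts, tissue and organoids, among 52929 gene identifiers listed in any file. RNA was sequenced with a stranded mRNA kit in 29 libraries from mice of the C57BL/6 strain in a study of ribonucleotide excision repair and tumors of the intestine. Crypts isolated from mice aged 52 weeks came from 4 H2B flox/flox controls and 4 H2BdIEC mice. Tissue came from 4 H2B/p53dIEC mice, each giving 1 tumor and 1 piece of adjacent non-tumor tissue, and from 4 H2B/p53flox/flox mice, used as controls; the tissue label of these control libraries is the same as that of the adjacent tissue, although no tumor is listed for these mice. Organoids, which are epithelial cultures grown from intestine, numbered 3 libraries each of control, H2BdIEC and H2B/p53dIEC genotype (H2Bp53dIEC below). By their genotype labels, the controls of every set carry floxed alleles. For the organoid controls the title says wild type, the genotype label H2B/p53flox/flox and the series text H2Bfl/fl. The labels do not name the Cre line behind the dIEC alleles, do not give the age of the tissue mice, and do not say whether organoid libraries came from separate mice or cultures. Organoid p-values thus rest on library-to-library spread that may be purely technical. The titles of the H2Bp53dIEC organoids lack a prefix that the other organoid groups share, so a batch and the genotype cannot be told apart there.

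Heat shock chaperones bind unfolded proteins and help them fold, disassemble aggregates and hold client proteins ready for activation. The HSP70 proteins (Hspa1a, Hspa1b, Hspa8) work with J-domain partners such as Dnajb1, which bring clients, and with nucleotide exchange factors such as Hsph1, which release them. The HSP90 proteins (Hsp90aa1, Hsp90ab1) act later, on kinases, receptors and other clients, and Hspd1 with its lid Hspe1 forms the folding chamber of mitochondria. Hspb1 is a small heat shock protein that holds unfolded proteins in solution. Many of these genes are induced by the transcription factor HSF1, which binds inverted repeats of the letters GAA; Hspa8 and Hsp90ab1 are the forms that unstressed cells express at a high level.

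On GRCm38 with GENCODE M21 the genes lie at chr17:34969190-34972156 (Hspa1a), chr17:34956436-34959238 (Hspa1b), chr9:40800984-40810087 (Hspa8), chr8:83608193-83612653 (Dnajb1) and chr5:149614287-149636376 (Hsph1). The others lie at chr12:110690605-110702728 (Hsp90aa1), chr17:45567775-45573271 (Hsp90ab1), chr1:55077835-55088243 (Hspd1), chr1:55088132-55091307 (Hspe1) and chr5:135887919-135889563 (Hspb1).

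The promoters are shown because several members hold such repeats and because the Hspa1a and Hspa1b copies are nearly the same. Windows of 250 bases before the RefSeq start sites on GRCm38.p6 were searched for GAANNTTC and TTCNNGAA, each of which reads the same on both strands. Capitals mark the matches, and sequences are given 5′ to 3′ on the strand of the gene. Hspa1a (chr17:34972157-34972406, minus strand) and Hspa1b (chr17:34959239-34959488, minus strand) each hold 1 match, which begins 104 bases before the start.
Hspa1a promoter: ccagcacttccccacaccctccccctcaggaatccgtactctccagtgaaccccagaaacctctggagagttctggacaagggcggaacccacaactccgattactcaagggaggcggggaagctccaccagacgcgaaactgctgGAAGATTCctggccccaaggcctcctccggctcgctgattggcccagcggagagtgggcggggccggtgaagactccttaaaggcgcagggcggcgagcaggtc
Hspa1b promoter: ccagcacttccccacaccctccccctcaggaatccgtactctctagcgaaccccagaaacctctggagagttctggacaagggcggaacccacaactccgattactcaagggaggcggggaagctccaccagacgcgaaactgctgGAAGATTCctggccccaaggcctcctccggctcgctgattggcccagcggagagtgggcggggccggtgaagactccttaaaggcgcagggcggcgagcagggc
These windows are identical at 247 of 250 bases, and the differences from Hspa1a to Hspa1b, counted from 1 at the 5′ end, are C44T, T47C and T249G. Stretches of 30 bases show the matches of Hsph1 (chr5:149636351-149636380, minus strand), of Hspd1 and Hspe1 (chr1:55088053-55088082, plus strand) and of Hspb1 (chr5:135887801-135887830, plus strand).
Hsph1 site: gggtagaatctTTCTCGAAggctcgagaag
Hspd1 and Hspe1 site: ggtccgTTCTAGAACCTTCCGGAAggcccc
Hspb1 site: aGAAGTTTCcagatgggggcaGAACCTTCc
The Hsph1 match lies 33 bases before the first of its 2 listed RefSeq starts, but inside the body of Hsph1 as annotated by GENCODE. The Hspd1 and Hspe1 stretch holds 3 overlapping matches, at 89, 84 and 79 bases before the start of Hspe1. It lies inside the annotated body of Hspd1, which is transcribed in the opposite direction, and inside the window of 1 of the 2 listed starts of Hspd1. Hspb1 holds 2 matches, at 117 and 97 bases before its start. Both listed Dnajb1 windows hold neither pattern, and Hspa8, Hsp90aa1 and Hsp90ab1 were not among the table's entries. Of 32851 RefSeq windows of the same length, 6.69% hold GAANNTTC, 7.17% hold TTCNNGAA and 12.8% hold either. A match describes these letters only.

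In 28 libraries the gene counts totalled 5774771 to 41504298, and tissue control 1320 held 401365. H2BdIEC crypts held fewer counts (15545059 to 18817537) than control crypts (23118463 to 25913155). Rnaseh2b, the RNase H2 subunit gene, checked the H2B labels: its mean level was 2.50 ± 0.27 CPM (counts scaled to library size; SD, n = 4) in H2BdIEC against 10.6 ± 4.0 in control crypts, with lower levels in every H2BdIEC library. In organoids it was at 1.65 ± 0.54 CPM in H2Bp53dIEC, 5.83 ± 1.08 in H2BdIEC and 16.6 ± 1.7 in controls (SD, n = 3). Trp53 was at 11.1 ± 1.0 CPM in H2Bp53dIEC, 95.7 ± 16.2 in H2BdIEC and 107 ± 9 in controls. A list of 10 intestinal epithelium markers was present in all libraries of crypts and organoids, while 10 lymphocyte markers summed to 19.4 to 90.6 CPM in crypts and at most 0.31 CPM in organoids, where 7 to 10 of them were at 0.

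CPM values were scaled within each set by TMM, a factor per library that assumes most genes do not change between libraries. The sets were scaled apart, so levels between sets carry no test. Divided by the length of the exons, Hsp90ab1 was the most abundant member in 7 of the 8 groups. It stood at 704 CPM per kilobase (range 538 to 872) in tumors, 306 (263 to 351) in tissue controls and 1142 (1105 to 1172) in organoid controls. In crypts its range overlapped that of Hspa8, which was ahead in H2BdIEC crypts at 254 CPM per kilobase against 236. Hspa8 came next in tissue and crypt controls, and Hspd1 in organoids. Hspa1a and Hspa1b were at or near the bottom in every group, with group means of 0.142 to 1.21 CPM per kilobase for Hspa1a and 0.857 to 3.81 for Hspa1b. Hspb1 had 2 to 7 counts in each crypt library and 0 to 3 in each organoid library, too few to test there, but 241 to 1976 counts in the tissue libraries other than control 1320. It was at 0 in 3 organoid libraries, where a count of 0 allows up to 0.144 to 0.198 CPM (3 counts; counting error only).

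**Figure D1:**
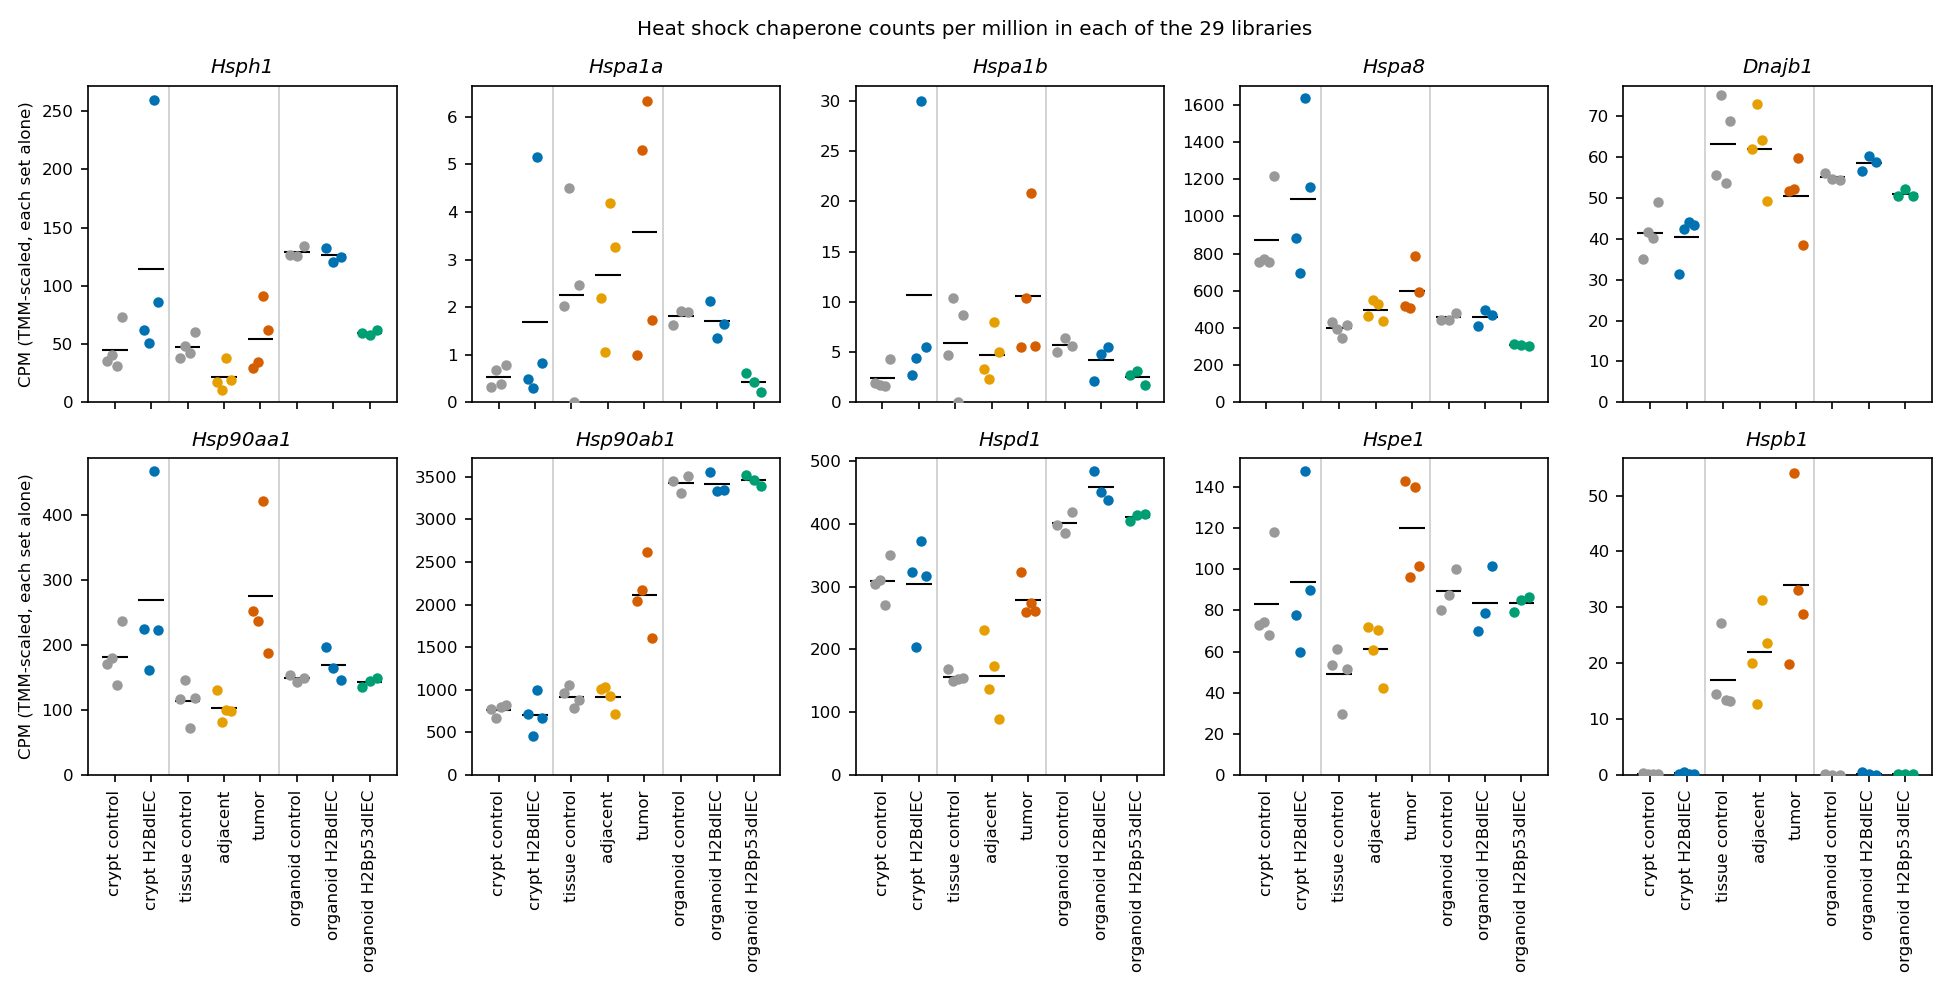
CPM (TMM-scaled within each set) on a linear axis from 0, for the 10 chaperone genes in each of the 29 libraries; points are libraries, black bars are group means, and grey lines separate crypts, tissue and organoids. Crypt library H2BdIEC 3 lies above the other crypts for Hsph1 (259 CPM), Hspa1b (29.99 CPM) and Hsp90aa1 (468 CPM), and tumors lie above adjacent tissue for Hsp90ab1.

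Reads can be shared between copies. Of the 50-base windows along Hspa1a exons 66.3% occur in another annotated gene, and 58.8% of all windows occur in Hspa1b, so counts of this pair are uncertain one by one. Annotated copies took very different shares in the 3 sets: Hspd1-ps3 held 48.1% to 55.8% of the counts of Hspd1 and itself in organoids but at most 0.876% in crypts and 0.136% in tissue. Gm15459, a copy of Hspa8, held 21.6% to 25.6% in organoids and at most 2.12% elsewhere, and Gm12346, a copy of Hsp90aa1, held 21.3% to 29.7% in organoids and at most 4.79% elsewhere. For Hsp90ab1, Gm6368 held 9.05% to 10.5% in organoids and at most 0.0238% elsewhere. Organoid levels of these 4 members are thus not on the same footing as those of crypts and tissue. Of their windows, Hsph1 shares none, Dnajb1 0.412%, Hsp90ab1 3.44%, Hspe1 22.8%, Hspa8 39.4%, Hspd1 42.1%, Hsp90aa1 47.5% and Hspb1 50.1%. Adding the counts of the main copy of Hspa8, Hsp90aa1, Hsp90ab1, Hspd1 and Hspb1 changed no call. For Hspe1 no counts of a copy are given, so this check does not clear it.

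The crypt comparison asks what loss of RNase H2 in the epithelium does at 52 weeks. None of the 9 members tested was called between H2BdIEC and control crypts (edgeR quasi-likelihood test, adjusted p under 0.05, the rule for a call throughout), where 5.16% of 14596 genes were called higher and 4.87% lower. By unadjusted p under 0.05, 1 member was higher and 0 lower, and DESeq2 also called 0. The groups overlapped for every member, whereas they were apart in 18.8% of genes. Library 3 of the H2BdIEC group stood above all other crypts for Hsph1, Hspa1a, Hspa1b and Hsp90aa1.

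Hsph1, the exchange factor, was at 35.6, 40.3, 31.5 and 73.7 CPM in control crypts 1 to 4 and at 62.3, 50.7, 259 and 86.4 CPM in H2BdIEC crypts 1 to 4. The means of 115 ± 98 and 45.3 ± 19.3 CPM gave a log2 fold change of 1.34 ± 0.59 (SE; adjusted p = 0.192 by edgeR). Library 3 was 3 times the next highest crypt, and 2 of the 3 other H2BdIEC values lay inside the control range. Hspa1b was at 1.93, 1.73, 1.59 and 4.36 CPM in controls and at 2.71, 4.42, 29.99 and 5.56 CPM in H2BdIEC crypts, a log2 fold change of 2.16 ± 0.84 (unadjusted p = 0.0367, adjusted p = 0.145). Its near copy Hspa1a was at 0.316 to 0.796 CPM in controls and at 0.488, 0.2996, 5.16 and 0.828 CPM in H2BdIEC crypts. Both of these genes stood apart in library 3 from the next highest crypt, at ratios of 5.395 for Hspa1b and 6.23 for Hspa1a.

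The other members stood less far apart in library 3. Hsp90aa1, the inducible HSP90 form, was at 170, 180, 138 and 236 CPM in controls and at 224, 161, 468 and 222 CPM in H2BdIEC crypts. Hspa8 stood at 1633 CPM in library 3 against 696 to 1218 in the other 7 crypts. Hspe1 stood at 148 against 59.9 to 118 CPM, Hsp90ab1 at 998 against 453 to 817 CPM and Hspd1 at 372 against 204 to 351 CPM. Dnajb1, the J-domain partner, was second highest there at 44.1 CPM, within the range of 31.4 to 49.0 CPM of the others, and Hspb1, at 2 to 7 counts, was not the highest either. Library 3 was thus the highest crypt for 8 of the 10 members.

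Leaving library 3 out brought the log2 fold change of Hsph1 to 0.56 ± 0.32 (adjusted p = 0.324 by edgeR), of Hspa1b to 0.82 ± 0.39 (adjusted p = 0.217) and of Hspa1a to 0.02 ± 0.48 (adjusted p = 0.987). Leaving out another crypt library instead brought these values to at most 1.69, 2.61 and 1.98 in turn. Whichever crypt library was left out, 0 members were called. In library 3, 18 other heat shock response genes summed to 2128 CPM against 1355 to 1681 in the other crypts, and 14 endoplasmic reticulum chaperones to 4863 against 3059 to 3752. The 12 immediate early genes, which respond within minutes to handling and growth factors, summed to 621 CPM, inside the range of 468 to 704. Summed epithelial (10911 CPM), acinar pancreas (31.0 CPM) and fibroblast (181 CPM) markers were also inside the ranges of the other crypts, whereas lymphocyte markers (90.6 against 19.4 to 83.1 CPM) and macrophage and neutrophil markers (27.3 against 12.9 to 24.6 CPM) were just above. The part of these in the chaperone levels was not tested. Of the wider chaperone lists, 1 of 23 other cytosolic chaperones and cochaperones was called higher in H2BdIEC crypts, Dnajb2, a J-domain protein, at 17.1 ± 0.6 against 11.99 ± 1.37 CPM (log2 fold change 0.51 ± 0.11, adjusted p = 0.0183). That count was 0 without control 3 and 2 without H2BdIEC 2, and over all genes tested 5.16% were called higher. The heat shock response, TRiC and prefoldin, mitochondrial, endoplasmic reticulum and immediate early lists had 0 calls by edgeR. By unadjusted p under 0.05 the heat shock response list had 2 genes higher, the endoplasmic reticulum list 2 higher, the mitochondrial list 2 lower and the other 2 lists 0, and DESeq2 called 1 heat shock response gene higher. Mitochondrial transcripts took 9.30% to 15.7% of counts in H2BdIEC and 4.33% to 10.4% in control crypts. The highest control share was that of control 4, against 4.33% to 5.09% in controls 1 to 3. Control 4 also held 1139428 reads set aside as ambiguous in the counting, against 146558 to 300082 in the other crypts. Members for which it was the highest control included Hsph1, Hspa1b, Hspa8, Hsp90aa1 and Hspe1. The 12 proliferation genes summed to 767 to 1127 CPM in H2BdIEC against 1111 to 1347 CPM in control crypts. Of 10 proximal small intestine markers 3 rose and 0 fell (13144 to 16432 against 5954 to 13159 CPM), and summed smooth muscle markers, 0 of 5 called, were at 250 to 292 against 183 to 247 CPM. The part of these in the chaperone levels was not tested.

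**Figure D2:**
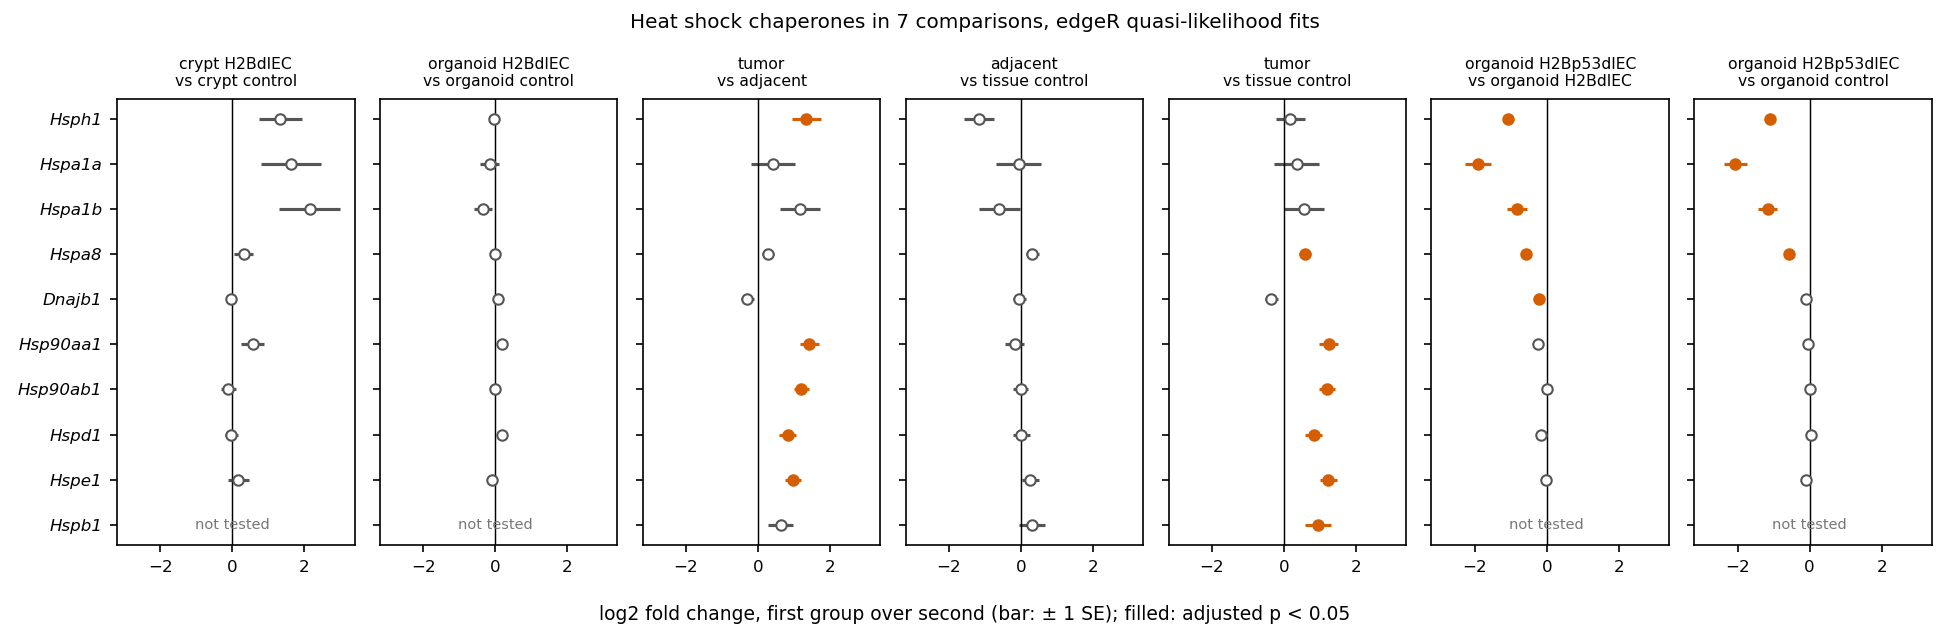
Log2 fold change of each chaperone gene (x axis; first group named over second, bars ± 1 SE) in 7 comparisons, with filled points at adjusted p under 0.05. HSP90 and mitochondrial chaperonin genes are filled in tumors, and the HSP70 genes and Hsph1 are filled on the lower side in H2Bp53dIEC organoids.

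Each of the 4 tumors had adjacent tissue from its own mouse as a reference. Both HSP90 genes, both mitochondrial chaperonin genes and Hsph1 rose in tumors, and no member fell: 5 of 10 were called higher, where 23.0% of 17666 genes were called higher, 24.0% lower and 46.9% either way. The median log2 fold change of the members was 0.90, against -0.00 over all genes tested. Tumor and adjacent libraries did not overlap for 4 members, all higher in tumors, a separation seen in 19.6% of genes in that direction. In bulk tissue fewer cells of a type and less RNA per cell cannot be told apart.

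Hsp90ab1, the constitutive HSP90, was at 2040, 2176, 2614 and 1612 CPM in the tumors of mice 1349, 1323, 1322 and 1319. In adjacent tissue of the same mice it was at 1012, 1027, 927 and 713 CPM, and at 961, 1052, 789 and 873 CPM in controls 1315, 1316, 1320 and 1321. All tumors lay above all other tissue, and the log2 fold change over adjacent tissue was 1.20 ± 0.21 (adjusted p = 0.00071 by edgeR). Hsp90aa1 was at 253, 237, 422 and 188 CPM in tumors and at 131, 81.7, 100.2 and 98.2 CPM in adjacent tissue, a log2 fold change of 1.42 ± 0.27 (adjusted p = 0.00102). Its ratio within a mouse ran from 1.91 in 1319 to 4.21 in 1322. For both HSP90 genes the tumor was higher in 4 of 4 mice.

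The mitochondrial pair moved by similar amounts. Hspd1, the chamber subunit, was at 323, 260, 273 and 261 CPM in tumors and at 231, 137, 174 and 88.6 CPM in adjacent tissue (log2 fold change 0.83 ± 0.23, adjusted p = 0.0116 by edgeR). Hspe1, its lid, was at 143, 96.5, 140 and 102 CPM in tumors and at 72.1, 60.6, 70.4 and 42.1 CPM in adjacent tissue (0.97 ± 0.22, adjusted p = 0.00374). The groups did not overlap for either gene. The annotated bodies of these genes overlap by 112 bases on opposite strands, and whether the counting used the strand is not given in the sources used here.

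Hsph1 varied more between mice. It was at 29.9, 34.6, 91.01 and 61.8 CPM in tumors and at 17.5, 10.9, 38.03 and 19.4 CPM in adjacent tissue, higher in the tumor of 4 of 4 mice although the groups overlapped. The log2 fold change was 1.34 ± 0.40 (adjusted p = 0.0168 by edgeR), and without the tumor of mouse 1322 it was 0.97 with adjusted p = 0.0555. With the mouse as a replicate block, which pairs the libraries by animal, Hsph1 kept its call (log2 fold change 1.31 ± 0.20, adjusted p = 0.00947).

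The HSP70 genes and Dnajb1 were not called. Hspa1b was at 5.54, 10.4, 20.8 and 5.63 CPM in tumors and at 3.33, 2.36, 8.02 and 5.06 CPM in adjacent tissue (log2 fold change 1.17 ± 0.55, adjusted p = 0.0973 by edgeR and 0.0498 by DESeq2). Hspa1a was higher in the tumor of 2 of 4 mice (0.42 ± 0.60, adjusted p = 0.597), and Hspa8 in 3 of 4 (0.28 ± 0.18, adjusted p = 0.219). Hspb1 had a log2 fold change of 0.63 ± 0.35 (adjusted p = 0.153), with its highest value, 54.0 CPM, in tumor 1323. Dnajb1 stood at 50.5 ± 8.8 CPM in tumors and 62.0 ± 9.8 CPM in adjacent tissue (-0.30 ± 0.17, adjusted p = 0.176) and was higher in the tumor of 0 of 4 mice.

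Among the chaperone lists, 10 of 14 TRiC and prefoldin genes, which fold actin and tubulin, rose in tumors and 0 fell, with a median log2 fold change of 0.68. Examples were Cct5 (1.10 ± 0.19, adjusted p = 0.000586 by edgeR) and Pfdn2 (1.17 ± 0.19, adjusted p = 0.000411). Of 18 other heat shock response genes 10 rose and 1 fell (median 0.47), among them the HSP90 cochaperone Ppid (1.05 ± 0.18, adjusted p = 0.000569) and the collagen chaperone Serpinh1 (1.59), while the J-domain gene Dnajb4 fell by 0.73 on the log2 scale (2 genes fell without tumor 1323). Leaving out 1 library gave 6 to 9 genes that rose, the lowest without adjacent 1319 or 1323, and the count was 6 with only the 2 groups in the fit. Of 25 other cytosolic chaperones and cochaperones 7 rose and 5 fell (median 0.04), near the shares of all genes called higher and lower, 23.0% and 24.0%. Ptges3, an HSP90 cochaperone, rose (1.05 ± 0.18), and Hspa12a (-3.73 ± 0.38) and Hspa2 (-1.84 ± 0.26), which are HSP70 relatives, fell. The heat shock factor genes Hsf1 (0.77 ± 0.21, adjusted p = 0.00899) and Hsf2 (0.98 ± 0.21, adjusted p = 0.0024) rose as well.

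Of 14 mitochondrial chaperones and proteases 5 rose and 3 fell, also not far from those shares (3 rose without adjacent 1319, adjacent 1323 or tumor 1322), including Hspa9, the mitochondrial HSP70 (0.98 ± 0.24, adjusted p = 0.00508 by edgeR), Lonp1 (0.74 ± 0.16) and Clpp (0.84 ± 0.15). Clpx, the partner of Clpp, fell (-0.65 ± 0.16). Of 14 endoplasmic reticulum chaperones 4 rose and 0 fell, such as Pdia6 (1.36 ± 0.35, adjusted p = 0.00672). That number was 7 without adjacent 1322 and 8 without tumor 1323. Of 12 immediate early genes 1 rose (Ier3, 2.83 ± 0.28) and 5 fell, 3 without tumor 1319.

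**Figure D3:**
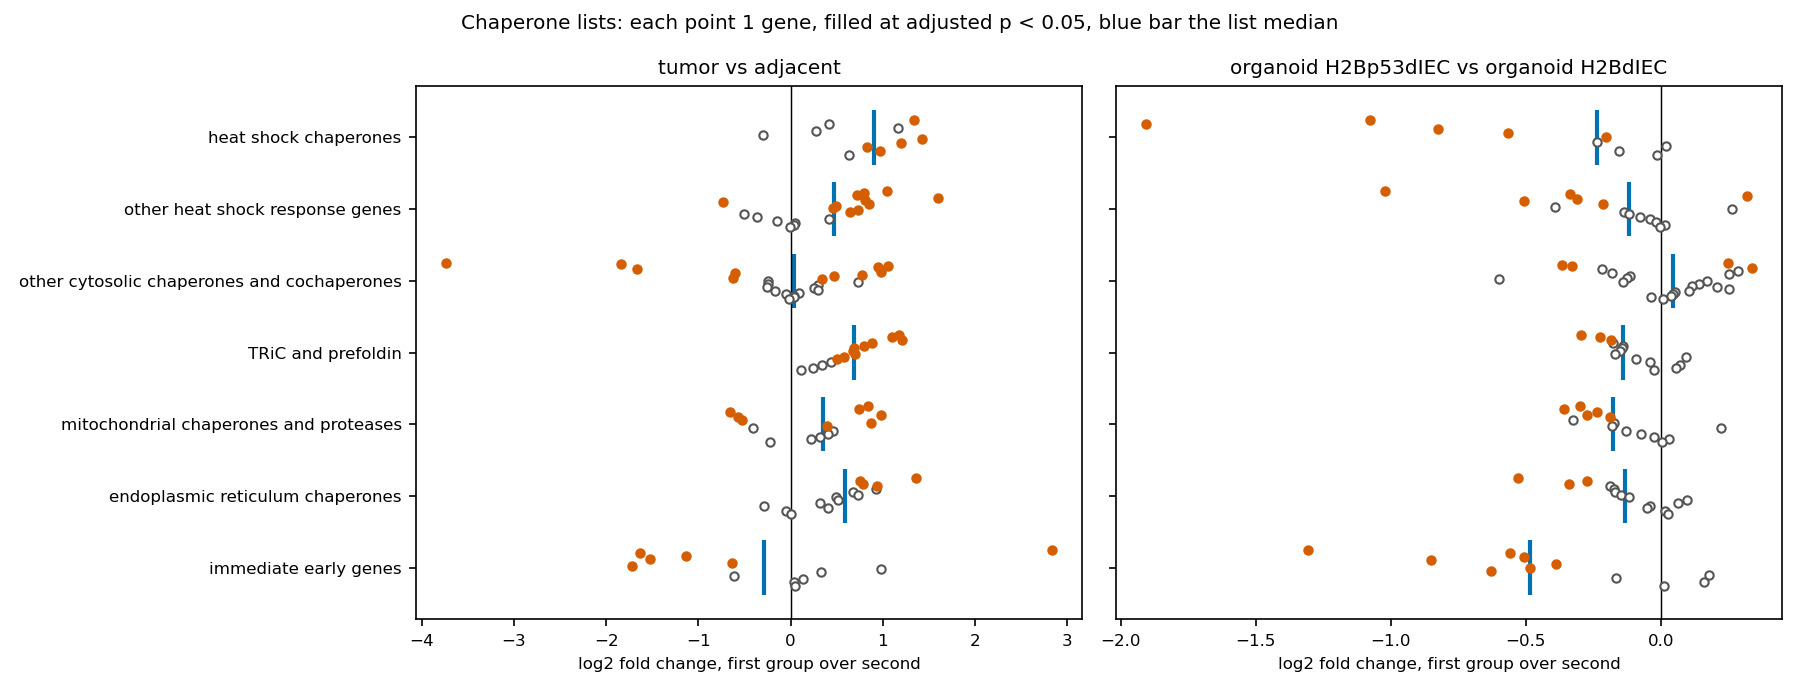
Log2 fold change (x axis) of every tested gene in the chaperone lists and the immediate early list, for tumor over adjacent tissue and for H2Bp53dIEC over H2BdIEC organoids; filled points passed adjusted p under 0.05 and blue bars are list medians. TRiC and prefoldin genes lie mostly above 0 in tumors (median 0.68), and immediate early genes mostly below 0 in H2Bp53dIEC organoids (median -0.49).

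Levels of cell type markers differed between tumor and adjacent tissue. Smooth muscle markers fell in tumors, 10 of 10, and summed to 350 to 975 CPM against 3508 to 5251 in adjacent tissue. Of 10 epithelial markers 7 fell and 1 rose (6683 to 10983 CPM against 14291 to 22759), of 10 macrophage and neutrophil markers 6 rose and 0 fell (1002 to 3102 against 182 to 953 CPM), and of 12 proliferation genes 7 rose and 0 fell (666 to 1165 against 263 to 789 CPM). Of 10 fibroblast markers 4 rose and 1 fell (1682 to 11085 against 565 to 1228 CPM), of 10 enteric neuron and glia markers 0 rose and 8 fell, and of 10 lymphocyte markers 0 rose and 4 fell. Mitochondrial transcripts took 0.881% to 1.85% of counts in tumors and 2.17% to 3.68% in adjacent tissue. Apart from those of enteric neurons and glia, of which at most 1 was at 0, none of these markers was at 0 in any tissue library other than control 1320. Proximal small intestine markers summed to 536 to 8635 CPM in tumors and to 560 to 46147 CPM in adjacent tissue. In that list 2 of 10 genes rose and 0 fell. Acinar pancreas markers summed to 58.3 to 298 against 13.8 to 37.3 CPM, and 2 of the 3 tested rose. Position along the intestine and tumor state thus cannot be told apart here. The part of all these markers in the chaperone levels was not tested.

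Adjacent tissue was compared with control tissue, and 0 of 10 members were called by edgeR (1.07% of genes were), with 0 higher and 1 lower by unadjusted p under 0.05 and 0 by DESeq2. Hsph1 was at 17.5, 10.9, 38.03 and 19.4 CPM in adjacent tissue and at 38.2, 48.8, 42.8 and 60.2 CPM in controls 1315, 1316, 1320 and 1321. All adjacent libraries were lower, by a log2 fold change of -1.16 ± 0.41 (unadjusted p = 0.0148, adjusted p = 0.175). Hspa8 was higher in all adjacent libraries (437 to 548 against 348 to 430 CPM; 0.31 ± 0.18, adjusted p = 0.391). Libraries of the groups were apart in 5.88% of genes on the lower and 8.22% on the higher side. Of the lists, Hspa4l, a relative of Hsph1, fell (-0.97 ± 0.17, adjusted p = 0.0238) and Fkbp5, an HSP90 cochaperone induced by glucocorticoids, rose (429 ± 72 against 109 ± 34 CPM; 1.96 ± 0.34, adjusted p = 0.0238). These 2 calls and that of the mitochondrial gene Grpel2 (-0.76 ± 0.15, adjusted p = 0.0335) were each lost without any 1 of the 4 controls. Hspa4l was also lost without adjacent 1319, Fkbp5 without adjacent 1349, and Grpel2 without adjacent 1319, 1323 or 1349. The 10 markers of the proximal small intestine summed to 560 to 46147 CPM in adjacent and 187 to 254 CPM in control tissue, so position along the intestine and genotype cannot be told apart here. Endothelium markers summed to 265 to 412 against 110 to 162 CPM, with 3 of 10 called higher. Smooth muscle markers, 0 of 10 called, summed to 3508 to 5251 against 5859 to 8974 CPM. Macrophage and neutrophil markers had 2 of 10 called higher. The part of these markers in the chaperone levels was not tested.

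Tumors were also set against the control tissue, which shares the tumor libraries with the comparison above. Here 6 of 10 members rose and 0 fell, where 28.6% of genes were called higher, 26.1% lower and 54.6% either way. Hsp90ab1 (1.20 ± 0.21, adjusted p = 0.000483 by edgeR), Hsp90aa1 (1.25 ± 0.27, adjusted p = 0.0017), Hspe1 (1.24 ± 0.23, adjusted p = 0.000675), Hspd1 (0.83 ± 0.24, adjusted p = 0.0093) and Hspa8 (0.59 ± 0.18, adjusted p = 0.014) did not overlap between the groups, as 27.5% of genes did not on the higher side. Hspb1 was at 19.9, 54.0, 33.2 and 28.8 CPM in tumors and at 14.4, 27.3, 13.4 and 13.1 CPM in controls (0.94 ± 0.36, adjusted p = 0.0425). That call was lost without control 1315, 1320 or 1321 or tumor 1322 or 1323, with adjusted p of 0.113, 0.081, 0.128, 0.0641 and 0.141 in turn. Hsph1, low in adjacent tissue, was close to controls in tumors (54.3 ± 28.2 against 47.5 ± 9.5 CPM; 0.18 ± 0.40, adjusted p = 0.732). Hspa1a and Hspa1b had 0 counts in the shallow control 1320, where 3 counts would be 8.03 CPM, above the level of Hspa1a in every tissue library. Of 14 TRiC and prefoldin genes 11 rose and 0 fell, with Cct8 at 257 ± 24 against 131 ± 4 CPM (0.97 ± 0.16, adjusted p = 0.000293). Of 18 other heat shock response genes 7 rose and 2 fell, Hspa4l (-0.93 ± 0.17) and Dnajb4 (-0.52). The number that fell was 4 without tumor 1323, and 1 without any 1 control, tumor 1319 or tumor 1349. Of 14 endoplasmic reticulum chaperones 2 rose and 3 fell, and the number that rose was 0 without tumor 1322, 1 without control 1315 or 1321, and 5 without tumor 1323. Of 14 mitochondrial chaperones and proteases 4 rose and 4 fell, and of 25 other cytosolic chaperones and cochaperones 8 rose and 5 fell. Markers moved with this comparison too: 8 of 10 proximal small intestine markers rose and 1 fell (536 to 8635 CPM in tumors against 187 to 254 in controls), 9 of 10 endothelium markers rose, 8 of 10 macrophage and neutrophil markers rose, and 10 of 10 smooth muscle markers fell. Position along the intestine and tumor state cannot be told apart here, and the part of the other markers was not tested.

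In organoids the H2BdIEC genotype was compared with controls, and 0 of 9 members were called by edgeR (4.06% of 15701 genes were) or by DESeq2. By unadjusted p under 0.05, 1 was higher and 0 lower: Hspd1 was at 484, 451 and 438 CPM in H2BdIEC and at 398, 386 and 418 CPM in controls (0.19 ± 0.06, unadjusted p = 0.0114, adjusted p = 0.125). Hspd1 and Dnajb1 (56.6 to 60.3 against 54.3 to 56.1 CPM) were the members whose groups did not overlap, both higher in H2BdIEC, as 11.4% of genes were. The level of Hsph1 was 133, 121 and 125 CPM in H2BdIEC and 126, 126 and 134 CPM in controls, a log2 fold change of -0.03 ± 0.07 (adjusted p = 0.822). Hsp90ab1 was at 3415 ± 128 CPM in H2BdIEC and 3426 ± 103 CPM in controls, which overlap. Libraries of H2BdIEC crypts and organoids were then set against each other in 1 fit with their controls. The difference of the H2BdIEC effect, crypts minus organoids, was 1.39 ± 0.72 on the log2 scale for Hsph1 (adjusted p = 0.321 by edgeR) and 2.55 ± 1.07 for Hspa1b (unadjusted p = 0.0365, adjusted p = 0.215), and 0 of 9 members were called, against 4.02% of 17163 genes. By unadjusted p under 0.05 that was 1 member, and DESeq2 called 0. Without crypt H2BdIEC 3 the difference for Hsph1 was 0.61 ± 0.37 and for Hspa1b 1.22 ± 0.53.

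The H2Bp53dIEC organoids were compared with the H2BdIEC organoids, from which they differed in Rnaseh2b as well as in Trp53 (log2 fold changes -1.82 and -3.13), so this is not a contrast in Trp53 alone. Hsph1, the HSP70 genes and Dnajb1 fell in them and no member rose: 5 of 9 were called lower, where 15.4% of genes were called lower, 13.9% higher and 29.3% either way. The HSP90 and mitochondrial genes were not called. Groups did not overlap for 5 members on the lower side, as in 22.7% of genes. These included Hspd1, which was not called, but not Hspa1b, which was.

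Hsph1 was at 59.7, 58.0 and 61.8 CPM in H2Bp53dIEC organoids 1 to 3, below every value of H2BdIEC organoids A to C given above. The log2 fold change was -1.07 ± 0.07 (adjusted p = 6.41e-07 by edgeR). Hspa8 was at 314, 311 and 302 CPM against 408, 496 and 468 CPM (-0.57 ± 0.08, adjusted p = 0.000257). Both genes showed a spread between H2Bp53dIEC libraries that was small beside the gap to the other organoids.

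Hspa1a was counted at 10, 7 and 3 reads, or 0.615, 0.431 and 0.216 CPM, against 12, 18 and 25 reads, or 2.13, 1.36 and 1.65 CPM, in H2BdIEC organoids (-1.91 ± 0.35, adjusted p = 0.00178 by edgeR). Hspa1b was at 2.77, 3.08 and 1.73 CPM against 2.13, 4.85 and 5.53 CPM, which overlap (-0.83 ± 0.28, adjusted p = 0.0436). Summing the reads of this pair gave -1.05 ± 0.23 (adjusted p = 0.00528). Dnajb1 was at 50.3, 52.2 and 50.4 CPM against 56.6, 60.3 and 58.7 CPM (-0.20 ± 0.06, adjusted p = 0.0336). The calls of Hspa1b and Dnajb1 were both lost with upper-quartile scaling, with only the 2 groups in the fit, and without H2BdIEC B, H2BdIEC C or any 1 of the H2Bp53dIEC libraries. The adjusted p without 1 of these libraries ran from 0.0577 to 0.17 for Hspa1b and from 0.0605 to 0.117 for Dnajb1, and without H2BdIEC C Hsp90aa1 was called lower in their place (-0.34, adjusted p = 0.0115).

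The remaining members were not called, although Hspd1 was lower in every H2Bp53dIEC library than in every H2BdIEC library. By unadjusted p under 0.05 (edgeR), 7 of 9 members were lower and 0 higher in this comparison, Hsp90aa1 and Hspd1 among them. Hsp90aa1 was at 136, 145 and 149 CPM against 198, 165 and 146 CPM (-0.24 ± 0.10, adjusted p = 0.0835 by edgeR), and Hspd1 at 405, 414 and 416 against 484, 451 and 438 CPM (-0.15 ± 0.06, adjusted p = 0.0943). Hsp90ab1 was at 3459 ± 61 against 3415 ± 128 CPM (0.02 ± 0.06, adjusted p = 0.854), and Hspe1 at 83.6 ± 3.8 against 83.6 ± 16.4 CPM (-0.01 ± 0.12, adjusted p = 0.948).

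Against organoid controls, which the comparison of H2BdIEC with controls also used, 4 of 9 members were lower in H2Bp53dIEC and 0 higher, where 16.6% of genes were called lower and 33.3% either way. They were Hsph1 (-1.11 ± 0.07, adjusted p = 3.26e-07 by edgeR), Hspa1a (-2.06 ± 0.32, adjusted p = 0.000434), Hspa1b (-1.16 ± 0.26, adjusted p = 0.00441) and Hspa8 (-0.56 ± 0.08, adjusted p = 0.000194). Hspa1b was at 5.04, 6.43 and 5.66 CPM in controls, above all H2Bp53dIEC libraries. Hspa8 was at 444, 443 and 482 CPM and Hspa1a at 1.62, 1.92 and 1.91 CPM in controls. Dnajb1 did not overlap either but was not called (-0.11 ± 0.06, adjusted p = 0.207). In 27.3% of genes the groups were apart on the lower side, and 5 members were. The H2Bp53dIEC libraries enter both comparisons, so the second is not independent of the first.

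Of the lists, 5 of 15 other heat shock response genes fell and 1 rose in H2Bp53dIEC against H2BdIEC organoids. Over all genes tested, 15.4% were called lower and 13.9% higher. Chordc1, an HSP90 cochaperone, fell (46.6 ± 2.7 against 95.6 ± 15.3 CPM; -1.02 ± 0.10, adjusted p = 2.1e-05 by edgeR), and the ubiquitin gene Ubb rose (0.32 ± 0.07, adjusted p = 0.00401). The number that fell was 2 without H2Bp53dIEC 1 or 2 and 3 without H2Bp53dIEC 3. Hsf1 (0.01 ± 0.12, adjusted p = 0.969) and Hsf2 (0.17 ± 0.11, adjusted p = 0.275) were not called. Of 11 immediate early genes 7 fell and 0 rose, among them Atf3 (-1.31 ± 0.13, adjusted p = 2.85e-05), Junb (-0.85 ± 0.14) and Egr1 (-0.56 ± 0.08). Of 14 mitochondrial chaperones and proteases 5 fell and 0 rose, such as Dnaja3 (-0.30 ± 0.06, adjusted p = 0.00401), and 2 fell without H2BdIEC B or H2Bp53dIEC 1 or 3 (3 without H2Bp53dIEC 2). Of 14 TRiC and prefoldin genes 3 fell and 0 rose, with 1 that fell without H2BdIEC B or H2Bp53dIEC 1 or 2. Of 14 endoplasmic reticulum chaperones 3 fell and 0 rose, with 6 without H2BdIEC C and 1 without H2Bp53dIEC 2. The numbers that fell in the TRiC and endoplasmic reticulum lists were not far from the share of all genes, 15.4%. Of 23 other cytosolic chaperones and cochaperones 2 rose and 2 fell, and 0 rose without H2Bp53dIEC 2, 1 without H2BdIEC B or H2Bp53dIEC 1, and 4 without H2BdIEC C. The number that fell was 4 without H2BdIEC A and 1 without any 1 of the other 5 libraries. Beside these, 6 of 12 proliferation genes rose and 0 fell (2997 to 3067 CPM summed against 2420 to 2814), 4 of 10 epithelial markers fell and 0 rose (6947 to 7290 against 7319 to 7719 CPM), and the library totals were 13549741 to 15844236 counts against 5774771, 13219451 and 15136734 counts. Their part was not tested.

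How members varied together was described by the correlation of log2 CPM after subtracting group means, over the 29 libraries, with no test. Libraries of the same mouse share an animal, and depth differs between libraries. Of 36 pairs of the 9 members tested in every set, 21 had r above 0.5 and 0 had r below 0. The share over all gene pairs was not computed, so these counts have no reference. Rank correlation (Spearman rho) differed from r for some pairs, in both directions. It was 0.11 against r = 0.45 for Hsph1 and Hsp90ab1, and 0.57 against r = 0.49 for Hsph1 and Hspa1b. Hspa1a and Hspa1b were closest (r = 0.93), a pair that shares reads, and Hspa1b and Hspd1 farthest (r = 0.10). For Hspa1a and Hspa1b, r was 0.84 without tissue control 1320, where both had 0 counts, and 0.06 within the 9 organoids. Within the 8 crypts 32 pairs were above 0.5, within the 12 tissue libraries 16, and within the 9 organoids 12, where 18 were below 0, for example Hspa1b and Hsp90aa1 (r = -0.89). Without crypt H2BdIEC 3, 15 pairs were above 0.5. Among 11556 genes tested in all sets, the gene most like Hsph1 was Chordc1 (r = 0.89), most like Hsp90aa1 was Ahsa1 (r = 0.89), an activator of HSP90, and most like Hspd1 was the TRiC subunit gene Cct8 (r = 0.90). Hspe1 was most like Tomm5 (r = 0.90), a subunit of the mitochondrial import pore, Hspa8 like Ahsa2 (r = 0.83), Hsp90ab1 like the proteasome gene Psmd7 (r = 0.85), and Dnajb1 like the tight junction gene F11r (r = 0.84). The gene most like Hspa1b was Chst14 (r = 0.93, and 0.75 without tissue control 1320, where Hspa1b had 0 counts).

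**Figure D4:**
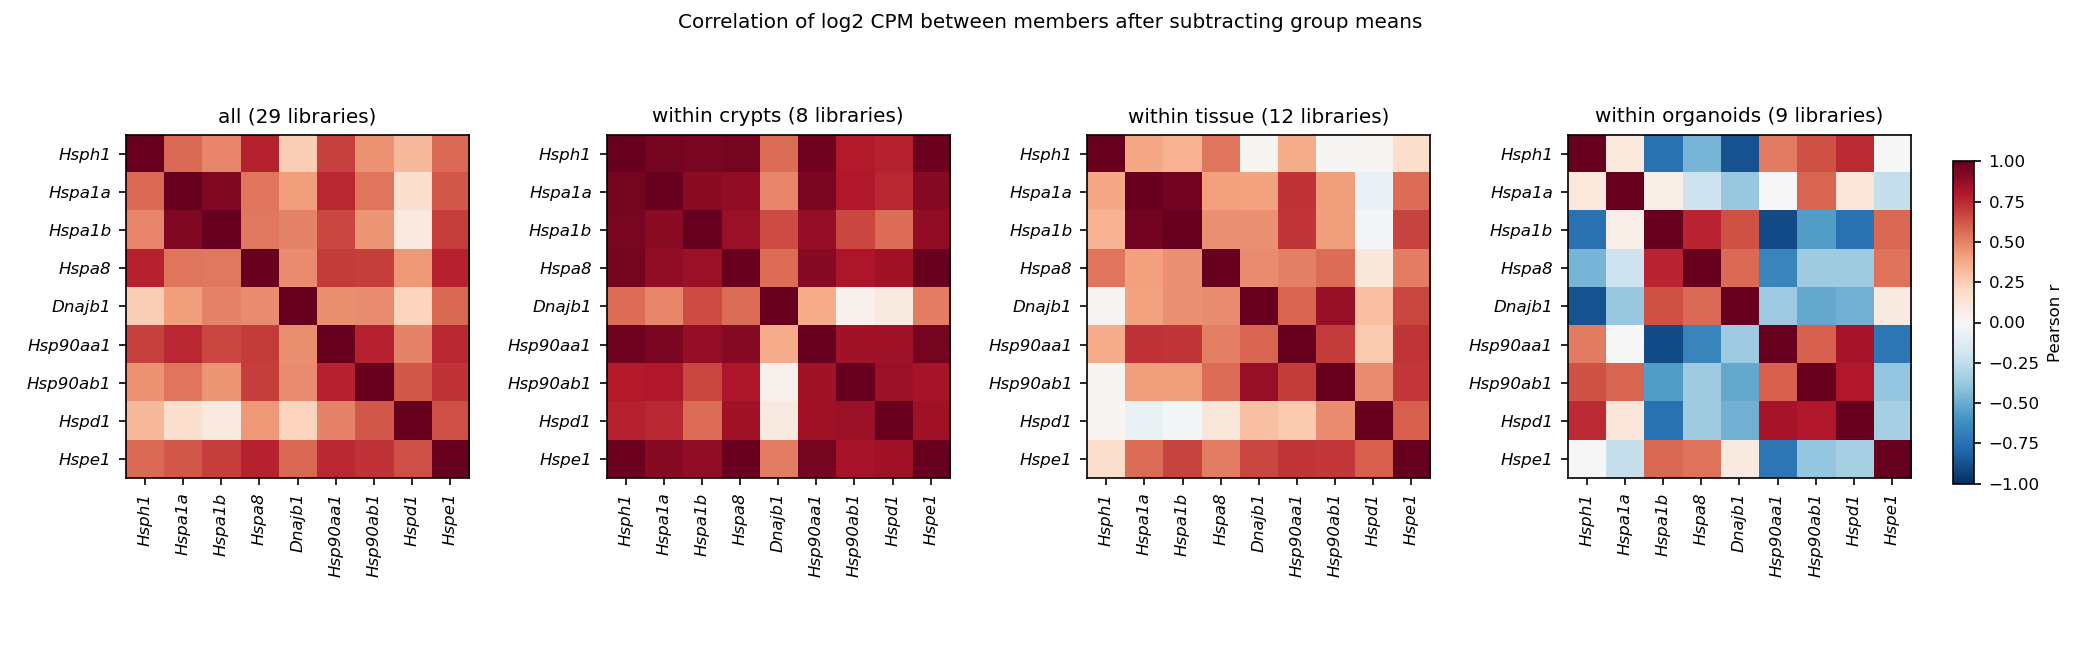
Pearson correlation of log2 CPM between chaperone genes after subtracting group means, in all 29 libraries and within crypts, tissue and organoids; colour runs from r = -1 (blue) to 1 (red). In crypts the 4 pairs at or below 0.5 all include Dnajb1, and organoids hold both signs, with 18 of 36 pairs below 0.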

How the data were processed

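RNA-seq libraries were counted per Ensembl gene, and the deposited counts are whole reads per gene with no normalization. The submitters' processing notes name HTSeq, TopHat2 2.0.14, Trimmomatic 0.36, cutadapt 1.5 and 1.9 and the build GRCm38; the strand setting of the counting is not given in the sources used here. Summary lines that name no gene were left out. Crypts, tissue and organoids were fitted apart with edgeR 4.0.16 in R 4.3.3: TMM factors, filterByExpr by group, the robust quasi-likelihood F test and Benjamini-Hochberg adjustment over all genes tested, with calls at adjusted p under 0.05. Standard errors are the log2 fold change divided by the square root of F. The difference between crypts and organoids was an interaction term over 14 libraries. Correlations used log2 CPM with a prior count of 2. The fit was tested on simulated counts.

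Groups came from the labels. Total counts ran from 401365 (tissue control 1320) to 41504298, which limits the genes with few reads, Hspa1a, Hspa1b and Hspb1. All members were named, together with at most the 4 called genes of smallest p in each list, Hsf1 and Hsf2, and the nearest genes by correlation. Dnajb4 in tissue and Ubb, as the lone genes that moved against their list, were named after their values were seen. The members and lists were chosen with earlier results of these data known. Tumor and adjacent libraries are paired by mouse in the labels, and residuals of libraries of 1 mouse correlated between -0.16 and 0.16. None of 39 pairs of replicates was identical. Alternatives were DESeq2 1.42.0 and its size factors, upper-quartile factors, other filters, a non-robust fit, summed Hspa1a and Hspa1b, pairing, fits on only the groups compared, and leaving out each library. Adding the copies' counts, and the correlation without crypt H2BdIEC 3, were chosen after seeing the data. Figures were drawn with matplotlib 3.10.9.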

Additional observations from a re-analysis of the deposited data

Results flagged for a closer look

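On the log2 CPM scale, in 5 of 48 combinations of gene and group of 4 libraries, the gap of 1 library to the nearest other, divided by the range, passed Dixon's critical value, where chance gives about 1 in 20. The values below are CPM. Hspa1b was at 0 CPM in tissue control 1320 and at 4.73 to 10.35 CPM in the other controls, and 3 counts in that shallow library would be 8.03 CPM. Crypt control 4 was high for Hspa8, at 1218 CPM against 753.5 to 768.8 CPM, and for Hspe1, at 118 CPM against 68.0 to 74.4 CPM. Dnajb1 was low in crypt H2BdIEC 1, at 31.42 CPM against 42.2 to 44.1 CPM. Hspb1 was high in tissue control 1316, at 27.27 CPM against 13.1 to 14.4 CPM. On the CPM scale itself, tried after seeing the data, Hspb1 in control 1316, Dnajb1, Hspa8 and Hspe1 passed as well and Hspa1b in control 1320 did not. There 3 further values passed: Hspa1a (5.16 CPM against 0.2996 to 0.828) and Hspa1b (29.99 against 2.71 to 5.56 CPM) in crypt H2BdIEC 3, and Hspa1b in crypt control 4 (4.36 against 1.59 to 1.93 CPM).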

How the results depend on the processing

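Of 1297 recomputed single-gene results, 1272 stayed on their side of the threshold, 22 lost a call and 3 gained one, and no called gene changed sign. Of those that stayed, 51 changed sign without being called in either fit. In H2Bp53dIEC against H2BdIEC organoids, 3 members were lower with only the 2 groups in the fit and 3 with upper-quartile factors, and 3 to 5 when 1 library was left out; the cause was not tested. Leaving out 1 library gave 4 to 5 members higher in tumors than in adjacent tissue and 5 to 6 higher than in control tissue. Pairing by mouse, as a replicate block, gave 5 members higher in tumors than in adjacent tissue, and changed no member's call. Residuals of organoid libraries with the same letter, A to C, correlated between -0.18 and 0.10. Tumor and adjacent libraries of 1 mouse gave a like range, -0.16 to 0.16, so this check cannot show whether the letters mark pairs. A replicate block by letter left 0 members called. Pairs of members with r above 0.5 numbered 21 over all libraries, 32 within crypts and 12 within organoids; the cause was not tested. Depth limits Hspb1 and Hspa1a in crypts and organoids.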
